A study of Mus musculus with 12 samples.

Results

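Homologous recombination copies a broken chromosome from its sister, the Fanconi anaemia pathway unlocks crosslinked DNA, and the checkpoint kinases hold the cell cycle while both run. In homologous recombination the MRE11-RAD50-NBN complex and its partners trim the broken ends, BRCA1, PALB2 and BRCA2 prepare the bared strand for pairing, and accessory factors such as the RAD54 proteins help it invade the sister. In the Fanconi pathway a core complex with the conjugating enzyme UBE2T attaches ubiquitin to FANCD2 and FANCI, which direct nucleases to the crosslink. ATM and ATR sense breaks and stalled forks, and CHEK2 and CHEK1 pass their signal on. Blood stem cells depend on these pathways over a lifetime, and inherited loss of the Fanconi genes causes bone marrow failure.

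The genes described here are 47 genes of homologous recombination, the Fanconi pathway, fork protection and the checkpoint. They were taken from a list of symbols with no threshold on measured values, and the list was drawn up with earlier results of these data known. Identifiers were matched to GENCODE M21 symbols on GRCm38, all 47 were found among 55471 genes, and all 47 passed the filter on low counts that left 17063 genes for testing. They were sorted by role into 5 end resection genes, 5 of the BRCA1-PALB2-BRCA2 axis, 8 strand invasion accessory factors, 9 Fanconi core genes including Ube2t, the FANCD2-FANCI pair, 3 structure-specific nuclease genes, 4 helicases and fork remodellers, 6 checkpoint genes and 5 break-site chromatin factors.

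RNA was sequenced from mouse LSK cells, the Lin-, Sca1+, Kit+ bone marrow fraction in which blood stem cells and early progenitors lie. In dKO both β-catenin (gene Ctnnb1) and Hoxa9 were targeted, in HOXA9_KO Hoxa9 alone, in Bcat_KO β-catenin alone, and WT was their reference. PRMT1_KO, in which the arginine methyltransferase gene Prmt1 was targeted, had a WT group of its own, WT_PRMT1. Each of the 6 groups had 2 libraries, named here by group and S tag. The tag S4 occurs in both Bcat_KO and HOXA9_KO, and the part of any batch among the groups was not tested. The cells of all groups, WT included, were taken from primary transplant recipients at 6 weeks after tamoxifen, a drug used to switch on inducible recombinases. The titles say KO while the genotype field says knockdown. The sources used here state neither the alleles, nor the driver of any recombinase, nor the age and strain of the mice, nor whether a group's 2 libraries are 2 animals, so p-values may measure technical spread only.

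Library totals lay between 17570000 and 40554000 counts, rounded to 5 digits. Hoxa9 stood at 9.21 and 8.92 CPM (counts scaled to a common library size after TMM factors) in dKO and 12.2 and 8.36 CPM in HOXA9_KO, against 58.7 and 59.9 CPM in WT. Prmt1 stood at 118 and 112 CPM in PRMT1_KO, against 283 and 292 CPM in WT_PRMT1. Ctnnb1 differed less, with 227 and 235 CPM in dKO and 276 and 267 CPM in Bcat_KO, against 315 and 342 CPM in WT. Kit (139 to 461 CPM) and Ly6a, which encodes Sca1 (73.7 to 298 CPM), were present in all 12 libraries, and Cd3e, of T cells, did not exceed 2.43 CPM. Kit had 330 and 308 CPM in PRMT1_KO, against 144 and 139 CPM in WT_PRMT1, and Ly6a 298 and 270 against 99.6 and 86.9 CPM. The female transcript Xist was at 163 to 202 CPM in the WT and WT_PRMT1 libraries, at 11.2 and 21.9 CPM in Bcat_KO and at most 0.758 CPM in the other knockout libraries. All 8 knockout libraries had between 60.6 and 93.5 CPM of the Y-linked Ddx3y, and the WT and WT_PRMT1 libraries at most 2.87 CPM. Each comparison of a knockout with its WT group therefore also set libraries of these sex transcript levels against each other, and the contributions cannot be told apart. Xist also stood higher in Bcat_KO than in dKO and HOXA9_KO, so comparisons of these knockouts share this limit. In bulk RNA, fewer cells of a type and less RNA per cell cannot be told apart either.

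Per kilobase of exon, H2afx, which encodes the histone variant H2AX that is phosphorylated around breaks, had the highest level of the 47 genes in WT, at 225 CPM per kb. The next were Nbn at 15.6, Topbp1 at 13.2, Mre11a at 12.8 and Rad50 at 11.7 CPM per kb. The lowest were Palb2 and the X-linked Fancb, both at 0.813 CPM per kb in WT. Summed over the 47 genes the level was 1290 and 1260 CPM in dKO, 1580 and 1630 CPM in HOXA9_KO, 1780 and 1720 CPM in Bcat_KO and 1610 and 1690 CPM in WT. It was 1100 and 1110 CPM in PRMT1_KO and 1840 and 1880 CPM in WT_PRMT1. The dKO and PRMT1_KO sums lay below those of every other library.

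Since many of these genes moved together with replication genes, their promoters were searched for the sites known from cell cycle genes. RefSeq promoter windows of 300 bases (GRCm38.p6, 250 bases before to 50 after the annotated start) were matched for 36 of the 47 genes. An E2F-type motif, TTT followed by CC, CG, GC or GG and then CGC, on either strand, lay in 7 of these 36 genes (19.4%), against 2.6% of all 27025 genes in the table, 45.8% of 24 replication genes and 9.52% of 21 mitosis genes. The 7 genes were Bard1, Brca2, Chek2, Fancg, Mdc1, Rad51c and Topbp1. The CHR motif of mitosis genes, TTTGAA on either strand, lay in 5 of 36 genes (13.9%), against 20.2% of all genes and 76.2% of the mitosis genes, and CCAAT lay in 63.9% of the 36 against 41.1% of all genes. CCAAT was sought on either strand too, and overlapping matches were all counted. In 6 of the 7 genes the E2F-type motif lies wholly upstream of the RefSeq start. The 80 bases around it are shown because the results turn on several of these genes. For Fancg the stretch lies inside the gene span used for counting (chromosome 4, 43002343 to 43010506, minus), which begins farther upstream. The stretches of Bard1 and Topbp1 reach partly into theirs. The strand shown is that of the gene, and capitals mark the motif.
Bard1: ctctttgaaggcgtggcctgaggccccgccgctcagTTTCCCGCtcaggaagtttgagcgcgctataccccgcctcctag
Brca2: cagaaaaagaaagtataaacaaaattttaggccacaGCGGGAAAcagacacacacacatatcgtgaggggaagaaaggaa
Chek2: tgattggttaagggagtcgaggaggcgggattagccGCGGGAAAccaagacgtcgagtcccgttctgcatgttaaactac
Fancg: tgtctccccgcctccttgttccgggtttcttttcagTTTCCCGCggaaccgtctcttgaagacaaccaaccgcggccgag
Mdc1: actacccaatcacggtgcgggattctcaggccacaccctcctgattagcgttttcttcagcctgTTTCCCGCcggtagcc
Topbp1: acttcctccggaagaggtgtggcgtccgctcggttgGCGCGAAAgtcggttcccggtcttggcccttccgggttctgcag
These stretches are chr1:71103138-71103217 (minus strand), chr5:150522417-150522496 (plus), chr5:110839795-110839874 (plus), chr4:43010310-43010389 (minus), chr17:35841418-35841497 (plus) and chr9:103305162-103305241 (plus), in the order of the lines. The motif ran from 209 to 202 bases before the start of Bard1 and from 16 to 9 bases before that of Mdc1, the farthest and the nearest of the 6. TTTCCCGC stood on the gene strand in Bard1, Fancg and Mdc1 and on the other strand in Brca2 and Chek2, while Topbp1 carried GCGCGAAA. The motif lay in 2 of 12 genes called lower in dKO than in WT (16.7%) and in 5 of 24 that were not (20.8%).

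**Figure D1:**
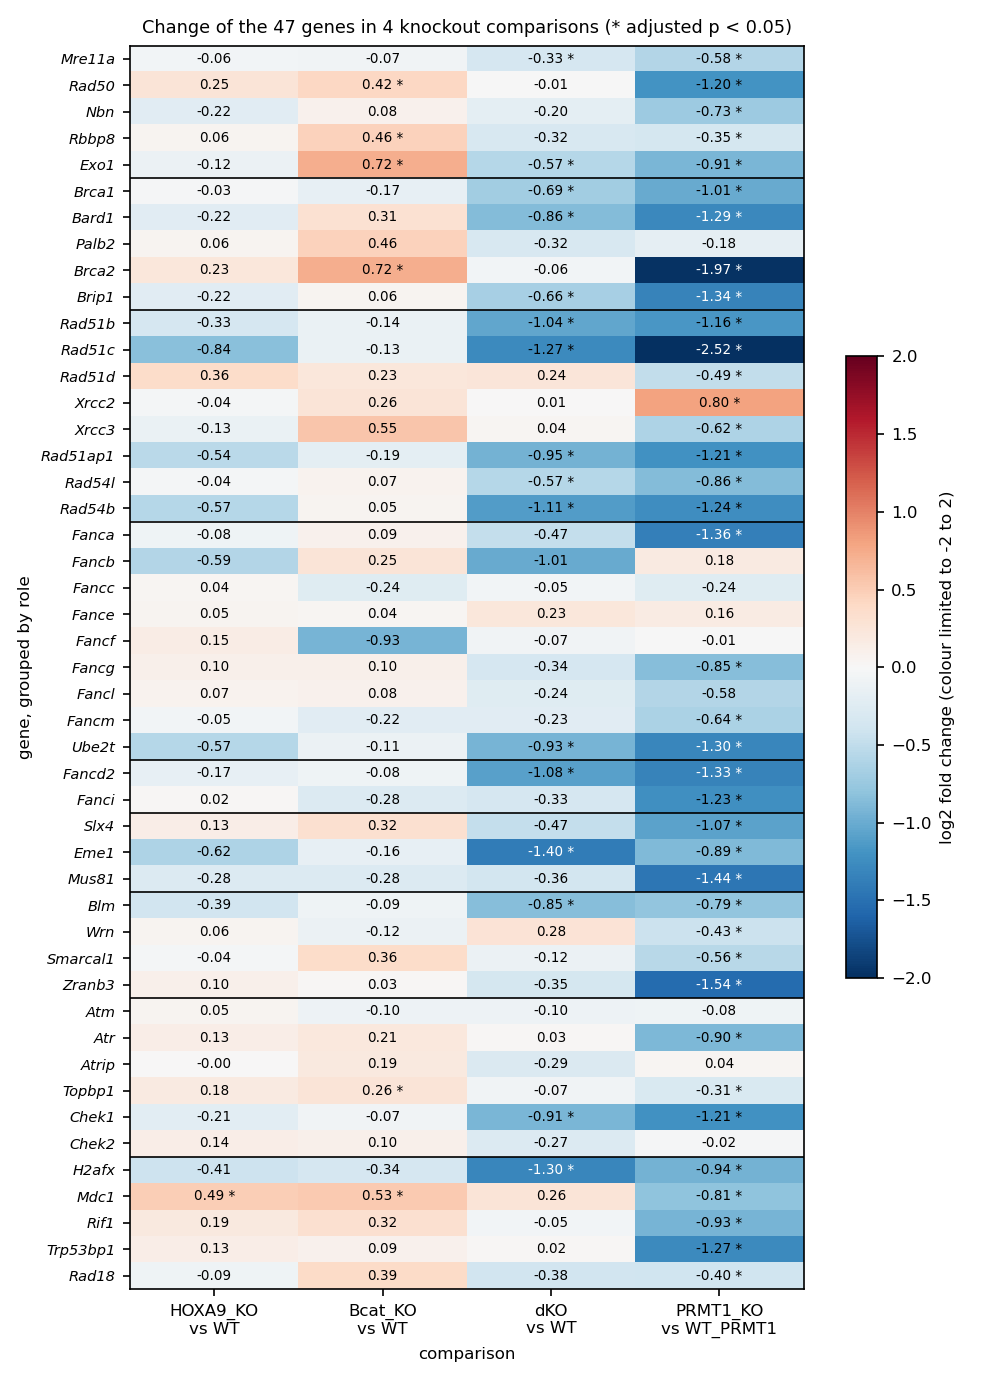
Log2 fold change of the 47 genes (rows, grouped by role between the black lines) in 4 comparisons (columns); blue is lower and red higher in the knockout, and an asterisk marks an adjusted p under 0.05 from edgeR. The HOXA9_KO column holds 1 asterisk and the Bcat_KO column 6, all on higher genes, the dKO column 16 on lower genes, and the PRMT1_KO column 37 on lower genes and 1 on a higher gene.

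With β-catenin and Hoxa9 both targeted, 16 of the 47 genes fell and none rose. The fall took in the damage histone H2afx (2.47-fold), the nuclease partner Eme1 (2.65-fold), Fancd2 (2.11-fold) and the checkpoint kinase Chek1 (1.88-fold), while Brca2, Rad50, Atm, Atr and Trp53bp1 had log2 changes between -0.10 and 0.03, none called. The 16 genes were 34.0% of the list, and among all genes tested in dKO against WT 17.7% were called in either direction, 8.52% lower and 9.15% higher (edgeR quasi-likelihood test, Benjamini-Hochberg adjusted p under 0.05 over 17063 genes). The median log2 change of the 47 genes was -0.33, against 0.01 over all genes tested. Changes below are log2 fold changes ± SE, with 2 libraries per group.

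H2afx (chromosome 9, 44334694 to 44336077, plus strand) had 141 and 112 CPM in dKO, against 299 and 324 CPM in WT, and 201 and 266 CPM in HOXA9_KO and 258 and 233 CPM in Bcat_KO lay between. The dKO libraries were the lowest of all 12. H2afx changed by -1.30 ± 0.14 (adjusted p = 3.81e-05), and 10.2% of its exon bases overlap an antisense gene. Of the other break-site factors, Mdc1, which binds phosphorylated H2AX, had 57.1 and 63.8 CPM in dKO and 50.9 and 49.8 CPM in WT, Rif1, which blocks resection, 39.5 and 55.8 against 50.5 and 47.8 CPM, and the ubiquitin ligase gene Rad18 (chromosome 6, 112619850 to 112696686, minus) 32.2 and 25.5 against 39.4 and 35.6 CPM. None of these 3, nor Trp53bp1, was called.

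Of the 8 strand invasion accessory genes 5 fell. Rad51ap1 (chromosome 6, 126923050 to 126939587, minus), whose product aids strand pairing, had 15.3 and 12.3 CPM in dKO, against 24.1 and 29.3 CPM in WT, a change of -0.95 ± 0.18 (adjusted p = 0.00124). The DNA translocase gene Rad54b (chromosome 4, 11558922 to 11615805, plus) had 4.53 and 4.97 CPM in dKO, against 9.15 and 11.3 CPM in WT (-1.11 ± 0.26, adjusted p = 0.00565). The groups did not overlap for either gene, but 35.9% of the exon bases of Rad54b overlap other genes, Fsbp on the same strand among them, and the Rad54b call was lost without WT S2 (0.0904). Rad51c had 5.23 and 2.35 CPM in dKO, against 7.48 and 10.8 CPM in WT. Rad51c (-1.27), Rad51b (-1.04) and Rad54l (-0.57) were the other 3, and Rad51d, Xrcc2 and Xrcc3 had changes of 0.24, 0.01 and 0.04.

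In the BRCA1-PALB2-BRCA2 axis Brca1, its partner Bard1 and the helicase gene Brip1 fell, and Brca2 and Palb2 were not called. Bard1 (chromosome 1, 71027498 to 71103146, minus) had 7.7 and 7.06 CPM in dKO, against 12.7 and 14.2 CPM in WT (-0.86 ± 0.22, adjusted p = 0.0114). Brca1 (chromosome 11, 101488764 to 101551955, minus) had 22.2 and 16.5 CPM in dKO, against 30.8 and 31.6 CPM in WT (-0.69 ± 0.18, 0.0132). Brca2 had 33.3 and 36.5 CPM in dKO, against 37.2 and 35.4 CPM in WT, and the groups overlapped. Both Bard1 and Brca2 carry the E2F-type site shown above.

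Of the 5 end resection genes 2 fell in dKO, and the median change of the 5 was -0.32. Mre11a (chromosome 9, 14784654 to 14837123, plus), the nuclease of the complex, had 58.5 and 62.8 CPM in dKO, against 71.3 and 80.8 CPM in WT (-0.33 ± 0.10, adjusted p = 0.0251), and the exonuclease gene Exo1 had 11.7 and 9.94 against 15.5 and 16.6 CPM (-0.57 ± 0.18, 0.0322). Rad50, Nbn and Rbbp8, which encodes the resection factor CtIP, were not called, with changes of -0.01, -0.20 and -0.32.

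Among 9 Fanconi core genes only Ube2t was called, while Fancd2 of the FANCD2-FANCI pair fell as well. Ube2t (chromosome 1, 134962565 to 134974162, plus) had 6.74 and 6.3 CPM in dKO, against 13.1 and 11.7 CPM in WT (-0.93 ± 0.23, adjusted p = 0.00833). The other 8 core genes changed by -1.01 (Fancb, at 22 to 53 counts a library in these groups) to 0.23 (Fance). Fancd2 (chromosome 6, 113531682 to 113597017, plus) had 18 and 9.68 CPM in dKO, against 29.4 and 29.1 CPM in WT (-1.08 ± 0.24, 0.00537). Its partner Fanci, of which 16% of exon bases overlap Polg, had a change of -0.33 ± 0.20 that was not called.

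Of the nucleases, Eme1 (chromosome 11, 94644996 to 94653964, minus), which pairs with MUS81, had 3.48 and 2.88 CPM in dKO, against 7.37 and 9.49 CPM in WT (-1.40 ± 0.29, adjusted p = 0.00225). Mus81 and the scaffold gene Slx4 were not called. Blm (chromosome 7, 80454733 to 80535119, minus), the Bloom syndrome helicase, had 17.6 and 13.9 CPM in dKO, against 27 and 29.5 CPM in WT (-0.85 ± 0.17, 0.00173). Wrn, Smarcal1 and Zranb3 changed by 0.28, -0.12 and -0.35, none called.

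Of 6 checkpoint genes Chek1 alone was called. It (chromosome 9, 36708482 to 36727065, minus) had 20.4 and 19.1 CPM in dKO, against 33.6 and 40.7 CPM in WT (-0.91 ± 0.19, adjusted p = 0.00226). Atm had 27 and 42.1 CPM in dKO, against 34.8 and 39.5 CPM in WT, and Atr 32.1 and 34.9 against 34.4 and 31.3 CPM, with overlapping groups for both. Downstream of them, Trp53, the p53 gene, had 174 and 164 CPM in dKO, against 208 and 215 CPM in WT (-0.32 ± 0.08, 0.00611), and its target Cdkn1a, a cell cycle inhibitor, had 201 and 220 against 122 and 109 CPM (0.87 ± 0.12, 6.02e-05).

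Leaving out single libraries, the dKO count was 7 without WT S2, 7 without dKO S7, 11 without WT S1 and 16 without dKO S6, and Blm, Chek1, Eme1, Fancd2, H2afx and Rad51ap1 were called each time. Calls were lost without WT S2 or dKO S7 for Bard1 (up to adjusted p = 0.117), Rad51c (0.23) and Rad54l (0.312), without WT S1 or dKO S7 for Ube2t (0.0891), without WT S1, WT S2 or dKO S7 for Brca1 (0.161), Brip1 (0.277), Exo1 (0.264) and Rad51b (0.189), and without WT S2 or either dKO library for Mre11a (0.409).

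**Figure D2:**
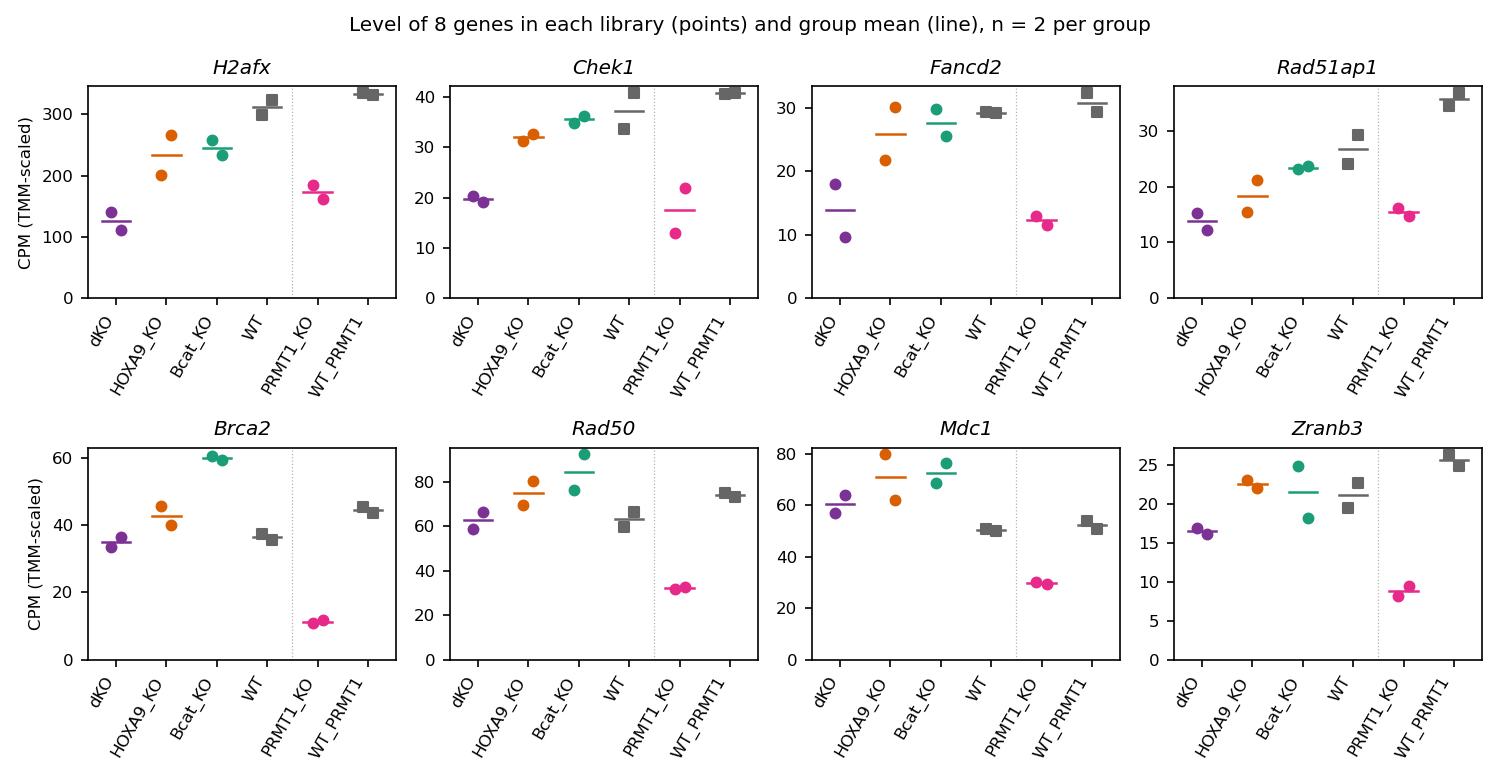
Level of 8 genes in each of the 12 libraries (points, TMM-scaled CPM) with the mean of the 2 libraries of a group (line). Squares are the WT groups, and the dotted line parts PRMT1_KO and WT_PRMT1 from the other groups. H2afx, Chek1, Fancd2 and Rad51ap1 were low in dKO and in PRMT1_KO, while Brca2, Rad50, Mdc1 and Zranb3 had their lowest values in PRMT1_KO.

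Genes of neighbouring processes moved in the same comparison. Of 30 replication origin and fork genes 25 were called lower in dKO (median log2 change -0.55), and of 25 mitosis genes 23 (median -1.41), with summed mitosis levels of 1310 and 892 CPM in dKO and 2530 and 2710 CPM in WT. Of 60 other genes of the same repair and checkpoint pathways 21 were called lower and none higher (35.0%, median -0.25). Those with the smallest p were Parp1, a break sensor (352 and 322 CPM in dKO, 581 and 545 CPM in WT, -0.74 ± 0.07, adjusted p = 1.88e-06), the CDK inhibitory kinase gene Wee1 (-0.74 ± 0.13), and Rpa1 (-0.43 ± 0.08) and Rpa2 (-0.55 ± 0.10), which coat single-stranded DNA. Mki67, a proliferation marker, had 118 and 94 CPM in dKO, against 176 and 144 CPM in WT, and was not called. Of 7 megakaryocyte markers, 6 of them tested, 4 were called higher, with summed levels of 1390 and 1230 CPM in dKO against 301 and 258 CPM in WT. Of 7 B cell markers 6 were called lower, with sums of 138 and 65.5 CPM against 565 and 683 CPM. Of 8 LSK markers, Kit and Ly6a among them, 3 were called higher and 3 lower. The part of proliferation and of cell composition in the changes of the 47 genes was not tested.

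**Figure D3:**
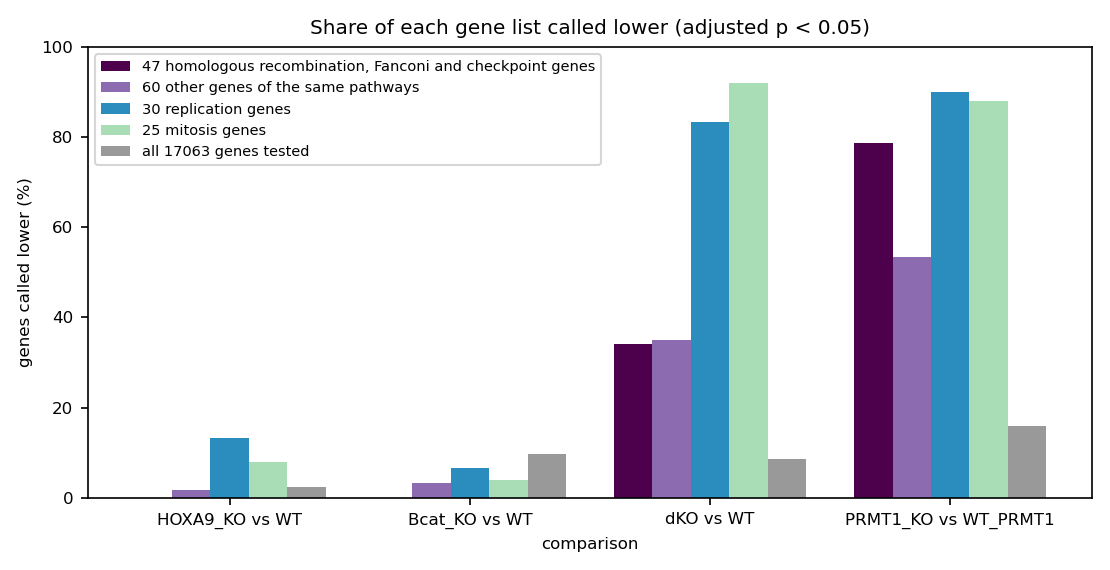
Percentage of each gene list called lower (adjusted p under 0.05, edgeR) in the 4 comparisons of a knockout with its WT group; the grey bar is all 17063 genes tested. In dKO the 47 genes stand at 34.0% and the mitosis genes at 92.0%, and in PRMT1_KO at 78.7% and 88.0%.

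When Hoxa9 alone was targeted, Mdc1 alone of the 47 genes was called, and it rose (2.13% of the list, against 6.73% of all genes tested called in either direction, 4.44% higher and 2.3% lower). At an unadjusted p under 0.05 there were 11 genes, a share not counted over all genes. The median log2 change was -0.04, against 0.00 over all genes. Mdc1 (chromosome 17, 35841515 to 35859670, plus) had 79.9 and 61.9 CPM in HOXA9_KO, against 50.9 and 49.8 CPM in WT, a rise of 0.49 ± 0.12 (adjusted p = 0.0191). In 3 of the 4 fits with a library left out this call was lost (all but that without HOXA9_KO S5; up to 0.329), leaving no gene called, and without HOXA9_KO S5 the count was 3. Of 7 megakaryocyte markers 3 were called higher, with sums of 786 and 797 CPM in HOXA9_KO and 301 and 258 CPM in WT. Of 8 LSK markers 4 were called higher and 2 lower. The part of both lists was not tested. Rad51ap1 (-0.54 ± 0.18, 0.0872) and H2afx (-0.41 ± 0.13, 0.0981) had separated groups but were not called. Between dKO and HOXA9_KO, H2afx was the only gene called of the 47 (2.13%, against 1.75% of all genes tested in either direction and 1.33% lower), at -0.89 ± 0.14 (0.0067). In the same comparison 15 of 25 mitosis genes (60%) and 8 of 30 replication genes (26.7%) were called lower, and the part of these lists was not tested. Of the 47 values 42 were below zero, against 8307 of 17063 over all genes tested. An unadjusted p under 0.05 was reached by 22 of the 47, a share not counted over all genes. Chek1 (-0.70), Fancd2 (-0.91) and Brca1 (-0.66) were not called, with adjusted p of 0.0729, 0.0789 and 0.0831. The count was 4 without dKO S6 and 2 without HOXA9_KO S4, and H2afx kept its call without any 1 library.

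When β-catenin alone was targeted 6 of the 47 genes rose and none fell. They were Brca2 (1.65-fold) of the BRCA1-PALB2-BRCA2 axis, the resection genes Exo1, Rad50 and Rbbp8, the mediator Mdc1 and the ATR activator Topbp1. The 6 genes were 12.8% of the list, against 17.2% of all genes tested called in either direction, 7.48% called higher and 9.76% called lower. The median log2 change of the 47 genes was 0.08, against -0.04 over all genes tested.

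Brca2 (chromosome 5, 150522630 to 150570329, plus) had 60.5 and 59.2 CPM in Bcat_KO, against 37.2 and 35.4 CPM in WT (0.72 ± 0.12, adjusted p = 0.000728), and its Bcat_KO libraries were the highest of the 12. Exo1 (chromosome 1, 175880581 to 175913489, plus) had 26 and 26.9 CPM in Bcat_KO, against 15.5 and 16.6 CPM in WT (0.72 ± 0.17, 0.00975). Rad50 (chromosome 11, 53649519 to 53707319, minus) had 76.4 and 92.3 CPM against 59.6 and 66.4 CPM (0.42 ± 0.11, 0.0192). The libraries of the groups were apart for each of these genes. Rbbp8 (chromosome 18, 11633276 to 11745221, plus) had 52.5 and 58.3 CPM in Bcat_KO, against 38.2 and 42.5 CPM in WT (0.46 ± 0.13, 0.0207). Mdc1 had 68.8 and 76.5 CPM against 50.9 and 49.8 CPM (0.53 ± 0.12, 0.00704). Topbp1 (chromosome 9, 103305215 to 103350428, plus) had 185 and 169 CPM against 152 and 144 CPM (0.26 ± 0.08, 0.0392). Brca2, Mdc1 and Topbp1 carry the E2F-type site shown above, while Exo1, Rad50 and Rbbp8 were not searched. The site lay in 19.4% of the 36 genes searched and in 2.6% of all genes in the promoter table. Its part in the rises was not tested. Without Bcat_KO S3 there were 6 calls, without Bcat_KO S4 and without WT S2 2 each, and without WT S1 there was 1, and Brca2 kept its call each time (at most 0.0152). Calls were lost without Bcat_KO S4 or either WT library for Exo1 (up to 0.104), Mdc1 (0.0667) and Rbbp8 (0.194), without Bcat_KO S4 or WT S1 for Rad50 (0.237), and without any of the 4 for Topbp1 (0.278).

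Beside these rises, Mki67 had 388 and 387 CPM in Bcat_KO, against 176 and 144 CPM in WT (1.27 ± 0.33, adjusted p = 0.0449). Of 30 replication genes 2 were called lower and none higher, and of 25 mitosis genes 2 were called higher and 1 lower. The largest change in the mitosis list, 1.27, matched that of Mki67, so the list and this marker are not separate results. All 7 B cell markers were called lower, with sums of 66.8 and 66.8 CPM in Bcat_KO and 565 and 683 CPM in WT. Of 8 erythroid markers 5 were called lower, with sums of 44.4 and 30.4 CPM in Bcat_KO and 938 and 246 CPM in WT. Of 7 T and NK cell markers 3 were called lower, although their sums were 133 and 136 CPM in Bcat_KO and 116 and 125 CPM in WT. Of 11 granulocyte markers 3 were called lower and 1 higher, and of 8 LSK markers 2 were called lower and 2 higher. The part of these lists in the result was not tested.

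Between dKO and Bcat_KO, 25 of the 47 genes were lower in dKO and Wrn was higher (55.3% called, against 28.1% of all genes tested in either direction, 12% called lower and 16.2% higher). Every role group held at least 1 gene called lower in dKO, but most of these calls were lost on leaving out some single library. Those of Ube2t, in the Fanconi core, and Slx4 were lost whichever of the 4 libraries was left out (changes of -0.87 to -0.77 and -0.91 to -0.69). The other core call, Fanca, was lost without Bcat_KO S4 or dKO S7 (-0.79 to -0.30 over the 4 fits). That of Fancd2 was lost without Bcat_KO S3 (-1.52 to -0.62). The smallest p belonged to Exo1, with 11.7 and 9.94 CPM in dKO and 26 and 26.9 CPM in Bcat_KO (-1.29 ± 0.18, adjusted p = 5.33e-05), Brca2, with 33.3 and 36.5 against 60.5 and 59.2 CPM (-0.78 ± 0.12, 0.000164), and Rbbp8, with 34.3 and 30.4 against 52.5 and 58.3 CPM (-0.78 ± 0.13, 0.000248). The groups did not overlap for any of the 3. Wrn, a helicase gene, had 60.4 and 60 CPM in dKO, against 47.3 and 44.2 CPM in Bcat_KO (0.40 ± 0.10, 0.00979), a call lost without Bcat_KO S4 (0.0574). Leaving out single libraries left 20 genes called without dKO S6, 18 without Bcat_KO S3, 16 without Bcat_KO S4 and 15 without dKO S7. In the same comparison 24 of 25 mitosis genes and 22 of 30 replication genes were called lower in dKO. All 6 megakaryocyte markers tested were called higher, as were 7 of 11 granulocyte markers (1 lower), 5 of 8 erythroid and 4 of 7 T and NK cell markers (1 lower). The sums over the megakaryocyte markers were 1390 and 1230 CPM in dKO and 367 and 375 CPM in Bcat_KO. Of 8 LSK markers 4 were called higher and 3 lower. Xist changed by -4.99 ± 0.63 (adjusted p = 0.00187). The part of these lists and of the Xist difference was not tested.

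Between the single knockouts 5 genes were called lower in HOXA9_KO than in Bcat_KO (10.6%, against 17.3% of all genes tested in either direction, 6.52% lower and 10.8% higher): Exo1 (-0.84 ± 0.17, adjusted p = 0.00339), Brca2 (-0.49 ± 0.12, 0.0101), Rad18, Xrcc3 and Rbbp8. Exo1 had 15.3 and 14.4 CPM in HOXA9_KO, against 26 and 26.9 CPM in Bcat_KO, Brca2 45.5 and 39.9 against 60.5 and 59.2 CPM, and Rad18 31.8 and 38.4 against 47.9 and 50.2 CPM. Exo1 alone kept its call without any 1 library, and 2 or 3 genes were called in each such fit: 3 without HOXA9_KO S4, and 2 without HOXA9_KO S5, Bcat_KO S3 or Bcat_KO S4. Brca2 and Rbbp8 were lost without HOXA9_KO S5 or either Bcat_KO library (up to 0.136 and 0.269), Rad18 without HOXA9_KO S4 or either Bcat_KO library (0.204), and Xrcc3 without any of the 4 (0.223). Markers called higher in HOXA9_KO were 5 of 8 erythroid, 4 of 6 megakaryocyte and 3 of 7 B cell genes, while 3 of 11 granulocyte markers were higher and 3 lower, and of the replication and mitosis genes 5 each were lower. Of 8 LSK markers 3 were called higher and 1 lower. Xist changed by -5.65 ± 0.70 (adjusted p = 0.00313). The part of these lists and of the Xist difference was not tested.

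Whether the change on targeting β-catenin was alike with and without Hoxa9 was tested as the departure from additivity, the log2 change of dKO against HOXA9_KO minus that of Bcat_KO against WT. Of the 47 genes 7 departed, all negatively (14.9%, against 8.43% of all genes tested in either direction, 3.9% negative and 4.54% positive), and the median of the 47 values was -0.49, against 0.04 over all genes. For Brca2 the change was -0.29 ± 0.12 in dKO against HOXA9_KO and 0.72 ± 0.12 in Bcat_KO against WT, a departure of -1.01 ± 0.17 (adjusted p = 0.00189). For Exo1 the changes were -0.45 and 0.72 (departure -1.17 ± 0.25, 0.00802), and for Rbbp8 -0.38 and 0.46 (-0.83 ± 0.18, 0.00895). Mdc1, Topbp1, Rad50 and Rad18 departed by -0.76, -0.51, -0.68 and -0.67. In all 7 genes the change was below zero without Hoxa9 and above zero with it. None of the changes of these 7 genes in dKO against HOXA9_KO was called on its own. This term rests on the same 8 libraries as the comparisons above and is no separate evidence. Ctnnb1 itself changed by -0.63 ± 0.07 in dKO against HOXA9_KO and by -0.28 ± 0.07 in Bcat_KO against WT, a departure of -0.35 ± 0.10 (adjusted p = 0.0462), so the level of the targeted transcript was not matched between the arms. Of these arms the one against WT alone crossed the sex transcripts: Ddx3y changed by 0.08 in dKO against HOXA9_KO and by 4.68 in Bcat_KO against WT, a departure of -4.60 ± 0.31 (6.7e-06). The departures of the 7 genes cannot be told apart from this difference. Erythroid (5 of 8) and T and NK cell markers (5 of 7) departed positively, and their part was not tested. Mitosis genes departed too, 14 of 25 negatively, and Mki67 by -1.98 ± 0.46 (0.0526).

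**Figure D4:**
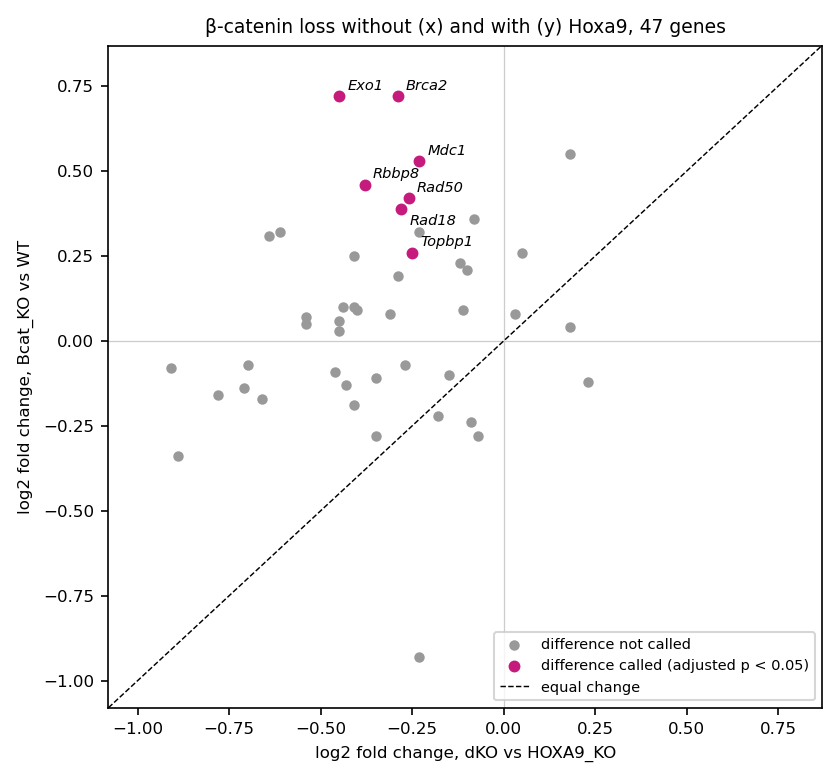
Log2 fold change of each of the 47 genes on targeting β-catenin without Hoxa9 (horizontal, dKO against HOXA9_KO) and with Hoxa9 (vertical, Bcat_KO against WT); the dashed line marks equal change and coloured genes depart from it at an adjusted p under 0.05. The 7 named genes sit in the upper left, below zero on the horizontal and above zero on the vertical axis.

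Brca2 kept its departure without any 1 of the 8 libraries (at most 0.0119). Counts called lay between 3 without WT S1 and 10 without dKO S6. Exo1 (0.0507) and Rbbp8 (0.0597) were lost without WT S1, Mdc1 (0.0782) without HOXA9_KO S4, Topbp1 without Bcat_KO S3 or WT S2 (up to 0.0712), Rad50 without Bcat_KO S4, WT S1 or HOXA9_KO S5 (0.105), and Rad18 without any library other than HOXA9_KO S4 and dKO S6 (0.194).

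Most of the 47 genes were lower when Prmt1 was targeted. In PRMT1_KO 37 genes fell and 1, Xrcc2, rose, and the falls were largest for the strand invasion accessory gene Rad51c (5.75-fold), Brca2 (3.93-fold) and the fork remodeller gene Zranb3 (2.9-fold). All 5 resection genes, all 3 nuclease genes, all 4 helicases and fork remodellers, both Fancd2 and Fanci, and all 5 break-site factors were among them. The 38 genes called were 80.9% of the list, against 32.5% of all genes tested in either direction, with 16% called lower and 16.6% higher. The median log2 change of the 47 genes was -0.86, against -0.03 over all genes tested. Scaling by library size alone moved the median of all genes to -0.17 and that of the 47 genes to -1.0.

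In the BRCA axis Brca2 had 10.8 and 11.7 CPM in PRMT1_KO, against 45.2 and 43.5 CPM in WT_PRMT1, a change of -1.97 ± 0.13 (adjusted p = 6.25e-09). These were the lowest Brca2 values of the 12 libraries. Brca1 had 17.7 and 18.8 CPM in PRMT1_KO, against 29.9 and 43.5 CPM in WT_PRMT1 (-1.01 ± 0.18, 0.000352), and Bard1 (-1.29) and Brip1 (-1.34) fell too. Palb2, which bridges BRCA1 and BRCA2, had 7.84 and 5.04 CPM against 9.28 and 5.3 CPM, with overlapping groups.

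Of the 8 strand invasion accessory genes 7 fell. Rad51c (chromosome 11, 87376645 to 87404954, minus) had 1.96 and 2.01 CPM in PRMT1_KO, or 32 and 45 counts, against 9.79 and 13.1 CPM in WT_PRMT1, a change of -2.52 ± 0.38 (adjusted p = 5.04e-05). Rad51ap1 had 16.1 and 14.7 CPM in PRMT1_KO, against 34.5 and 36.8 CPM in WT_PRMT1 (-1.21 ± 0.18, 5.89e-05). Neither gene's groups overlapped. Rad51b (-1.16), Rad54b (-1.24), Rad54l (-0.86), Xrcc3 (-0.62) and Rad51d (-0.49) followed.

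For end resection, Rad50 had 31.9 and 32.6 CPM in PRMT1_KO, against 74.9 and 73.1 CPM in WT_PRMT1 (-1.20 ± 0.12, adjusted p = 6.1e-07), and both values were below those of the other 10 libraries. Exo1 (-0.91), Nbn (-0.73), Mre11a (-0.58) and Rbbp8 (-0.35) had smaller falls. Of the fork remodellers, Zranb3 (chromosome 1, 127954184 to 128103047, minus) had 8.15 and 9.54 CPM in PRMT1_KO, against 26.4 and 24.9 CPM in WT_PRMT1 (-1.54 ± 0.19, 6.51e-06). Blm (-0.79), Smarcal1 (-0.56) and Wrn (-0.43) fell less. The nuclease genes Mus81, Slx4 and Eme1 had changes of -1.44, -1.07 and -0.89.

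Among break-site factors, Rif1 (chromosome 2, 52072832 to 52122383, plus) had 30 and 31.8 CPM in PRMT1_KO, against 58.5 and 59.3 CPM in WT_PRMT1 (-0.93 ± 0.13, adjusted p = 3.78e-05). Trp53bp1, which shields broken ends, changed by -1.27 ± 0.18, with 15% of its exon bases overlapping Tubgcp4, and H2afx had 185 and 162 CPM against 335 and 331 CPM (-0.94 ± 0.14, 0.000176). Mdc1 (-0.81) and Rad18 (-0.40) fell as well. In the Fanconi pathway Fancd2 had 13 and 11.6 CPM in PRMT1_KO, against 32.3 and 29.3 CPM in WT_PRMT1 (-1.33 ± 0.24, 0.000589), and Fanci changed by -1.23. Of the 9 core genes Fanca (-1.36), Ube2t (-1.30), Fancg (-0.85) and Fancm (-0.64) fell, and Fancb, Fancc, Fance, Fancf and Fancl were not called.

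The checkpoint genes divided. Chek1 had 13 and 22 CPM in PRMT1_KO, against 40.6 and 40.8 CPM in WT_PRMT1 (-1.21 ± 0.19, adjusted p = 8.5e-05). Atr (chromosome 9, 95857597 to 95951781, plus) had 19.5 and 15.8 CPM in PRMT1_KO, against 28.6 and 37.1 CPM in WT_PRMT1 (-0.90 ± 0.18, 0.000669), and Topbp1 had 153 and 170 against 201 and 200 CPM (-0.31 ± 0.08, 0.00644). Atm (chromosome 9, 53439149 to 53536740, minus) had 32 and 29.3 CPM against 34.1 and 30.7 CPM, with overlapping groups. Atm, Chek2 and Atrip had changes of -0.08, -0.02 and 0.04 and were not called. Trp53 changed by -0.46 ± 0.08 (0.000152) and Cdkn1a by 0.10 ± 0.11 (0.560).

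Of the 38 calls in PRMT1_KO, 27 were kept without any 1 of the 4 libraries, and 28 to 33 genes were called in those fits. Eme1, Fancm and Rad18 were lost in each (adjusted p up to 0.199, 0.148 and 0.246). Rbbp8 was lost without PRMT1_KO S8 or either WT_PRMT1 library (0.364), Topbp1 and Rad51d without PRMT1_KO S8 or WT_PRMT1 S11 (0.141 and 0.194), Slx4 without PRMT1_KO S8 or WT_PRMT1 S10 (0.0982), Wrn without WT_PRMT1 S10 (0.0841), Smarcal1 without either PRMT1_KO library or WT_PRMT1 S11 (0.157), and Xrcc3 without either PRMT1_KO library or WT_PRMT1 S10 (0.383).

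As in dKO, neighbouring lists moved. Of the replication genes 27 of 30 were called lower in PRMT1_KO (median -0.87), of the mitosis genes 22 of 25 (-1.15), and of the other 60 pathway genes 32, with none higher (53.3%, median -0.45). Parp1 had 332 and 314 CPM in PRMT1_KO, against 694 and 689 CPM in WT_PRMT1 (-1.10 ± 0.07, adjusted p = 6.74e-09). Mki67 had 92.3 and 177 CPM against 351 and 263 CPM (-1.18 ± 0.33, 0.0341). All 7 B cell markers were called lower (sums of 76.6 and 77.6 CPM in PRMT1_KO, 785 and 744 CPM in WT_PRMT1), 5 of 7 megakaryocyte markers higher (734 and 689 against 144 and 139 CPM) and 4 of 11 granulocyte markers higher (6080 and 5800 against 1420 and 1520 CPM). Of 8 LSK markers 5 were called higher and 1 lower, with Kit (1.17 ± 0.10) and Ly6a (1.61 ± 0.12) among the higher. The part of all these lists in the changes of the 47 genes was not tested.

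The series title ties the action of β-catenin and Hoxa9 to Prmt1, and the changes in dKO and PRMT1_KO rest on separate WT groups. Prmt1 itself was called lower in dKO, at 255 and 259 CPM against 322 and 334 CPM in WT (-0.35 ± 0.07, adjusted p = 0.00206). It was called lower in HOXA9_KO too (-0.27 ± 0.07, 0.029) and not in Bcat_KO (-0.10 ± 0.07, 0.347). The part of these Prmt1 levels was not tested. All 16 genes lower in dKO were also called lower in PRMT1_KO. They are 100% of the dKO list and 43.2% of the 37 genes lower in PRMT1_KO, a comparison in which 78.7% of the 47 genes fell. The other 21 of these 37 genes were not called in dKO. Of all genes tested 8.52% were called lower in dKO and 16% in PRMT1_KO. Their overlap was not counted, so the 100% is not shown to be particular to these genes. Testing the difference itself, the log2 change in dKO minus that in PRMT1_KO, gave 11 genes called, all positive (23.4%, against 15.7% of all genes tested in either direction, 7.93% positive and 7.75% negative). The median difference was 0.34, against 0.03 over all genes, and scaling by library size alone moved these medians to 0.45 and 0.14. Ddx3y differed by -1.26 ± 0.35 (adjusted p = 0.0269), Kit by -0.65 ± 0.14 (0.00509) and Ly6a by -0.75 ± 0.16 (0.00382), and their part was not tested.

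Brca2 changed by -0.06 ± 0.12 in dKO and -1.97 ± 0.13 in PRMT1_KO, a difference of 1.92 ± 0.18 (adjusted p = 1.76e-06). Rad50 changed by -0.01 and -1.20 in dKO and PRMT1_KO (difference 1.19 ± 0.16, 9.99e-05), and Mdc1 by 0.26 and -0.81 (1.08 ± 0.17, 0.000372). Trp53bp1, Wrn, Rif1, Zranb3, Atr, Rad51d, Fanci and Fanca were the other 8, with differences from 0.71 to 1.30. The break-site factors Trp53bp1, Rif1 and Mdc1, 3 of the 5 in that role group, were among them. Brca2, Rad50, Mdc1, Trp53bp1, Wrn, Rif1 and Zranb3 kept their calls without any 1 library, Fanca passed narrowly (0.0497), and 7 to 12 genes were called in those fits, with 7 without WT_PRMT1 S11. Atr, Rad51d, Fanci and Fanca were each lost in 3 or more of the 8 fits (up to 0.116, 0.138, 0.247 and 0.203). For the 16 genes that fell in dKO no difference was called, which does not show that they changed alike.

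**Figure D5:**
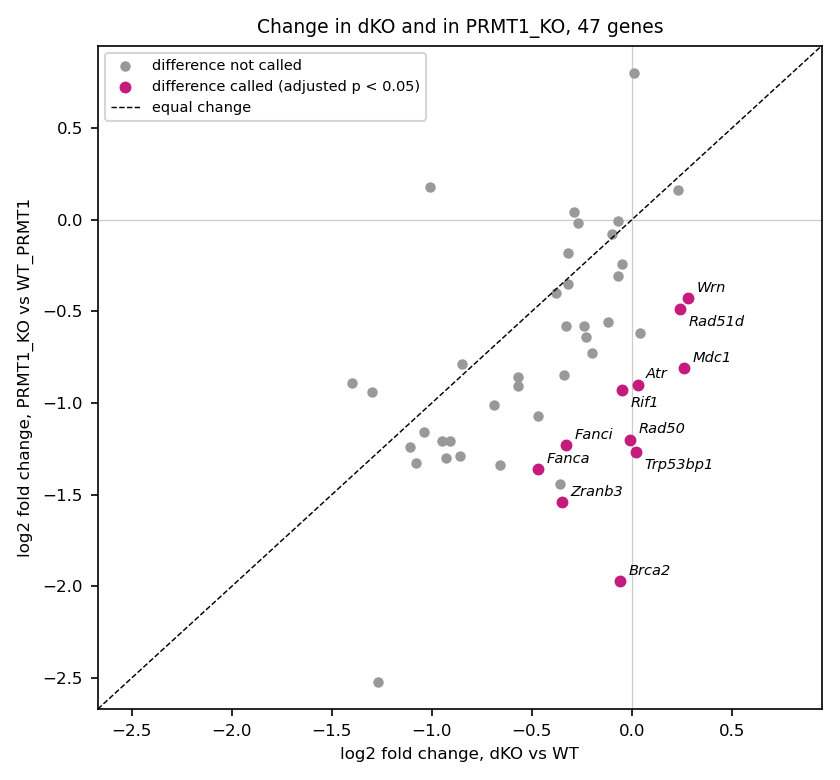
Log2 fold change of each of the 47 genes in dKO against WT (horizontal) and in PRMT1_KO against WT_PRMT1 (vertical); the dashed line marks equal change and coloured genes differ between the changes at an adjusted p under 0.05. The 11 named genes lie below the line, with Brca2 the farthest, at -0.06 and -1.97.

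The WT groups themselves differed in 2 of the 47 genes (4.26%, against 7.58% of all genes tested in either direction, 3.71% higher and 3.87% lower). Topbp1 had 201 and 200 CPM in WT_PRMT1, against 152 and 144 CPM in WT (0.44 ± 0.08, adjusted p = 0.00234), and Rbbp8 had 59.1 and 57 against 38.2 and 42.5 CPM (0.52 ± 0.13, 0.0154). The Rbbp8 call was lost without WT S1 or either WT_PRMT1 library (up to 0.196). The median log2 change of the 47 genes was 0.13, against -0.01 over all genes. Of the 60 other pathway genes 6 were called higher and 1 lower (11.7%), and of 30 replication genes 2 were called higher. Of 6 megakaryocyte markers tested 3 were called lower, with sums of 144 and 139 CPM in WT_PRMT1 and 301 and 258 CPM in WT. Kit changed by -0.93 ± 0.10 (adjusted p = 2.31e-05). The part of these differences was not tested.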

How the data were processed

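Gene counts of 12 libraries in 6 groups were deposited by the authors as a table of whole numbers, with no normalization. The submitters' processing notes name Trim Galore 0.6.6, STAR 2.7.6a, featureCounts and the builds GRCm38 and mm10. Per the labels' protocols, the kits were RNeasy Plus Micro for total RNA and Ultra II Directional for libraries. Neither the annotation nor the strand setting of the counting is stated in these sources, so a gene and an overlapping neighbour cannot be told apart. Even counts made up 67.1 to 75.9% of nonzero values, so both mates of a pair appear to have been counted. Columns named control were read as WT. Of 55471 genes 55230 matched GENCODE M21 by identifier.

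In R 4.3.3, edgeR 4.0.16 was run with filterByExpr (minimum count 10), TMM scaling and a robust quasi-likelihood fit of 6 group means (6 residual degrees of freedom). Adjusted p-values (Benjamini-Hochberg) cover all 17063 genes in each of 10 comparisons. Each SE was derived from the quasi-likelihood F statistic, as the size of the log2 change over sqrt(F). The fit was first tested on simulated counts. Alternatives were RLE factors, library size alone, no filter, a mean of at least 5 CPM, DESeq2 1.42.0 and each library left out. In another, each WT group was fitted with its own knockouts alone. The fit without robust estimation was added after the data were seen. Figures were drawn with matplotlib 3.10.9 in Python 3.11.15, with pandas 2.3.3.

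The members and lists were chosen with earlier results of these data known. Values per library are given for called genes with the smallest p (up to 8 in dKO, 6 in each of PRMT1_KO, HOXA9_KO and Bcat_KO, 3 elsewhere), for Brca1, Brca2, Fancd2, Atm, Atr and Chek1, and for the gene with the smallest p of each role in dKO. Others, such as Palb2, Wrn and Xrcc2, were chosen after their values were seen.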

Additional observations from a re-analysis of the deposited data

Results flagged for a closer look

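The first 7 genes were singled out because the change of dKO against HOXA9_KO differed from that of Bcat_KO against WT by a test of the difference itself (edgeR, adjusted p under 0.05). The departures from additivity were -1.01 for Brca2, -1.17 for Exo1, -0.83 for Rbbp8, -0.76 for Mdc1, -0.51 for Topbp1, -0.68 for Rad50 and -0.67 for Rad18 on the log2 scale. Ctnnb1 (-0.35) and the sex transcript Ddx3y (-4.60) departed in the same test, and their contribution cannot be told apart.

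A further 11 results were singled out because the change in dKO differed from that in PRMT1_KO by the same kind of test. The differences, dKO change minus PRMT1_KO change, were 1.92 for Brca2, 1.19 for Rad50, 1.08 for Mdc1, 1.30 for Trp53bp1, 0.71 for Wrn, 0.88 for Rif1, 1.19 for Zranb3, 0.93 for Atr, 0.74 for Rad51d, 0.90 for Fanci and 0.89 for Fanca. Ddx3y differed by -1.26 in the same test, and its part was not tested. Brca2, Rad50 and Mdc1 were in both sets, which share the dKO and WT libraries.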

How the results depend on the processing

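None of the calls of single genes changed direction under the alternatives run. Among the calls named in the text, 752 values in other settings kept their side of the threshold and 26 lost it, and with a library left out 366 kept it and 158 lost it. The count in HOXA9_KO against WT was 1, and it was 2 with library size alone, 2 without the filter and 3 with DESeq2. It was 0 when WT and its own knockouts alone were fitted. The count in dKO against HOXA9_KO was 1, and it was 2 with library size alone, 5 without the filter and 4 with DESeq2. It was 2 when WT and its own knockouts alone were fitted. The other 8 counts stayed within 1.5 times under these settings. Leaving out each library gave 0 to 3 calls in HOXA9_KO, 1 to 6 in Bcat_KO, 7 to 16 in dKO, 1 to 4 in dKO against HOXA9_KO, 15 to 20 in dKO against Bcat_KO, 2 to 3 in HOXA9_KO against Bcat_KO, 3 to 10 for departure from additivity, 28 to 33 in PRMT1_KO, 7 to 12 for the difference between dKO and PRMT1_KO and 1 to 2 between the WT groups. These fits hold fewer libraries, and the lone library of a group is assumed to vary like the others. No paired analysis was possible because the columns carry S tags and not the replicate numbers of the labels. Library size alone moved the median log2 change of all genes to -0.17 in PRMT1_KO and to 0.14 for the difference between dKO and PRMT1_KO. Depth limits Fancb and Fancf most, with 16 to 122 and 38 to 110 counts a library.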

Other observations

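Xrcc2, of the strand invasion accessory genes, was the 1 gene of the 47 called higher in PRMT1_KO. There 43 values lay below zero and 4 above, against 8814 and 8211 over all genes tested. Xrcc2 had 10 and 7.31 CPM in PRMT1_KO, against 4.24 and 5.66 CPM in WT_PRMT1. The other WT group stood at 8.89 and 8.33 CPM, within the range of PRMT1_KO. The change against WT_PRMT1 was 0.80 ± 0.29 (edgeR, adjusted p = 0.0424). The call was lost with library-size scaling, without edgeR's robust option, and without PRMT1_KO S8, WT_PRMT1 S10 or WT_PRMT1 S11 (adjusted p up to 0.315).

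Fancf, of the Fanconi core, had 3.49 and 0.896 CPM in the libraries Bcat_KO S3 and S4, or 110 and 38 counts, against 4.81 and 3.47 CPM in WT. Its change of -0.93 ± 0.50 was not called, although Bcat_KO S4 was the most deeply sequenced library.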
